A study of Mus musculus with 20 samples.

Results

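Iron storage and transport was followed through 8 genes, which code for the ferritin chains Fth1 and Ftl1, the iron uptake proteins Tfrc and Slc11a2, the iron exporter Slc40a1, the plasma iron proteins Cp and Trf, and the iron sensor Ireb2. The genes were taken by symbol from the 54532 genes of the count table, by a rule that uses no measured value, in a set put together with earlier results of these data known. All 8 were among the 15354 genes that passed the filter on low counts. They were compared between 10 tumors and 10 normal kidneys, with 1 RNA-seq library each.

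The tumors came from the Cre-less AAV model, in which an adeno-associated virus (AAV) without Cre was injected into the kidney of adult C57BL/6 mice and delivered sgRNAs against Vhl, Pbrm1, Keap1 and Tsc1. The mice were LSL-Cas9/+; Pax8 Cre/+, so that Cas9 and EGFP were switched on in cells that express Pax8, which are mostly epithelial cells of the kidney tubule. The normal kidneys were normal regions of the kidneys of the same 10 mice, so both groups share the genotype and a virus injection into a kidney, and the normal kidneys are not tissue of untreated animals. Libraries were made from poly(A) RNA of whole, pulverized frozen tissue and therefore hold tumor or tubule cells together with blood, vessel and immune cells.

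Iron enters most cells bound to transferrin (Trf) through the transferrin receptor (Tfrc), is carried across membranes by Slc11a2, stored in shells of ferritin heavy chain (Fth1) and light chain (Ftl1), and leaves through ferroportin (Slc40a1), the only known cellular iron exporter, after which ceruloplasmin (Cp) oxidizes it for loading onto transferrin. When iron is scarce, the iron regulatory proteins Ireb2 and Aco1 bind short hairpins called iron responsive elements, which blocks translation where the hairpin lies before the coding part of an mRNA and protects the mRNA from decay where it lies after it. The kidney tubule takes back filtered iron, and kidney cells that lack Vhl keep hypoxia-inducible factors, which regulate several iron genes. Keap1 holds back the factor Nrf2, of which ferritin genes are known targets.

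Hairpins of this kind are shown first because they are a sequence feature that Fth1, Ftl1, Slc40a1 and Tfrc have in common. The search was for a C, 5 bases, a loop of the letters CAGTGN whose last base is not G, and 5 closing bases. The closing bases had to pair with the first 5 (G-T pairs allowed), and whether the C was unpaired was not checked. The search read the sense strand of the untranslated regions of GENCODE M21 transcripts (GRCm38, the assembly also called mm10). It found 1 match before the coding part of Fth1, Ftl1 and Slc40a1 and 4 matches after that of Tfrc. They stood in 4 of 5 annotated protein-coding transcripts of Fth1, 1 of 2 of Ftl1, 1 of 4 of Slc40a1 and 1 of 3 of Tfrc. Counts per gene do not tell these transcripts from the others. Each is printed with 6 bases on either side and with the loop in capitals.
Fth1, chr19:9982732-9982760, plus strand: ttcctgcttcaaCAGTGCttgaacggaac
Ftl1, chr7:45459779-45459807, minus strand: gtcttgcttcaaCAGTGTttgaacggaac
Slc40a1, chr1:45925465-45925493, minus strand: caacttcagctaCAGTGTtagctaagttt
Tfrc site 1, chr16:32631219-32631247, plus strand: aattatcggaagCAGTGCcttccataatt
Tfrc site 2, chr16:32631598-32631626, plus strand: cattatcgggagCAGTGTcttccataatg
Tfrc site 3, chr16:32631663-32631691, plus strand: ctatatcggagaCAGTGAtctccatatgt
Tfrc site 4, chr16:32631710-32631738, plus strand: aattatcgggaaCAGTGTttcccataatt
The hairpins of Fth1 and Ftl1 had 26 of 29 letters in common, whereas those of Fth1 and Slc40a1 had 13 in common. Within Tfrc, between 18 and 25 of 29 letters were identical. Such letters are rare: they stood before the coding part in 23 of 20916 genes with an annotated region there (0.11%) and after it in 100 of 21045 genes (0.475%). In Slc11a2, Cp, Trf and Ireb2 no match was found, which says only that these exact letters are not in the annotated regions. A hairpin with an unpaired base within the 5 pairs would have been missed, so these genes may still carry such an element. A match is a description of letters, and binding of the regulatory proteins was not measured.

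Total counts lay between 14737516 and 26679704 per library. Levels are CPM, counts relative to the total of the library after scaling by its TMM factor. Fold changes are log2 of tumor over normal kidney, each with its standard error (SE) and a p-value from the quasi-likelihood test in edgeR, adjusted over all genes tested. Normal kidney 9 stood apart, with a TMM factor of 0.749 beside 1.03 to 1.14 in the other normal kidneys and with 12.2% of its counts on mitochondrial genes, and tumor 7 had the highest summed macrophage, neutrophil, erythroid and endothelial markers of the tumors. Of the targeted genes, Vhl lay at 12.3 to 28.5 CPM in tumors and 21.5 to 28.7 in normal kidneys (adjusted p = 0.00179), Tsc1 at 25.6 to 51.9 and 18.9 to 62 (0.00871), Pbrm1 at 36.1 to 74.8 and 20 to 92.8 (0.23) and Keap1 at 55.8 to 91.1 and 36.5 to 50.5 (1.3e-07, higher in tumors), and edits that change the protein need not lower the mRNA. All 8 distal nephron markers were lower in tumors, where their sum was 2.14 to 13.2 CPM beside 4082 to 10270 in normal kidneys, while 3 of 8 proximal tubule markers were lower and 0 were higher (995 to 9080 CPM beside 1762 to 11580). In such bulk samples fewer cells of a type and less RNA per cell cannot be told apart, and the part of these cell types in the values below was not tested.

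Of the 8 genes, 4 rose in tumors and 0 fell. In 33 alternative settings, however, the call of Tfrc was lost in 18 and Cp was called lower in 11. Over all genes tested, 23.6% were called higher and 23.8% lower at an adjusted p under 0.05. The median log2 fold change was 0.38 over the 8 genes and -0.02 over all genes tested. The iron exporter Slc40a1 and the importer Slc11a2 rose the most, about 3.3-fold and 3.1-fold, the ferritin light chain rose 1.9-fold and the transferrin receptor 1.5-fold, while the ferritin heavy chain, ceruloplasmin, transferrin and Ireb2 did not pass the test.

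**Figure D1:**
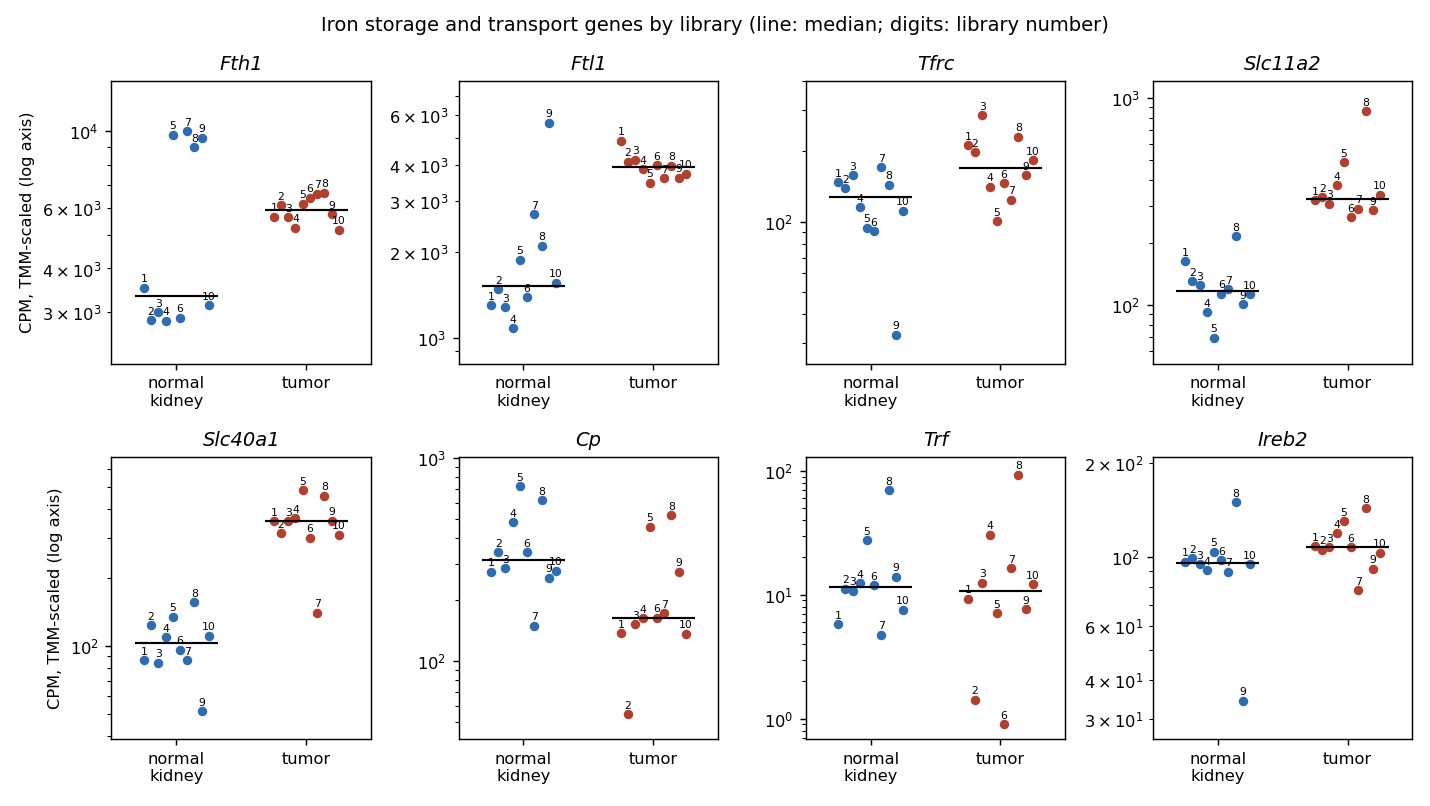
CPM (TMM-scaled, log axis, its range set for each gene) of the 8 genes in each of the 10 normal kidneys (blue) and 10 tumors (red), with the library number above each point and a line at the median. The groups do not overlap for Slc11a2, and 4 normal kidneys lie above and 6 below all tumors for Fth1.

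**Figure D2:**
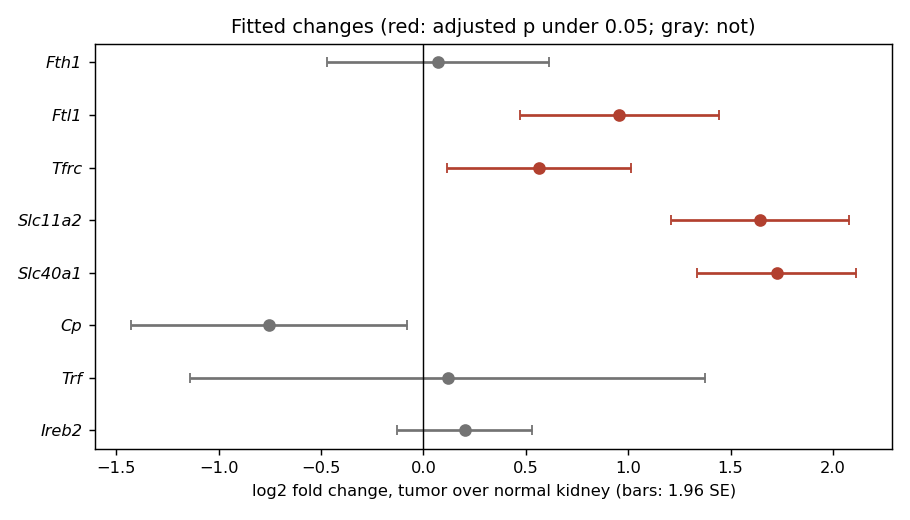
Fitted log2 fold change of tumor over normal kidney for each of the 8 genes, with bars of 1.96 SE. Slc40a1, Slc11a2, Ftl1 and Tfrc (red) passed an adjusted p of 0.05, and the bars of Fth1, Trf and Ireb2 cross 0.

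Storage was examined first. Fth1 (chr19:9982703-9985092, plus strand) codes for the heavy chain, whose ferroxidase site oxidizes iron for storage. In normal kidneys its level was 2825 CPM at the lowest, 3324 at the median and 9981 at the highest. In tumors it ran from 5185 through a median of 5923 to 6626 CPM. The tumors thus lay close together in a gap between normal kidneys 5, 7, 8 and 9, which read 9755, 9981, 8978 and 9568 CPM, and the other 6 normal kidneys, which read 2825 to 3519 CPM. On the log2 CPM scale the SD was 0.13 over the 10 tumors and 0.86 over the 10 normal kidneys. The mean over the 10 tumors was 5935 CPM with an SD of 523, and that over the 10 normal kidneys was 5645 CPM with an SD of 3393. The fitted log2 fold change was 0.07 (SE 0.28, adjusted p = 0.85, interval of 1.96 SE -0.47 to 0.61). This difference was smaller than the spread between normal kidneys, and its sign turned with upper quartile factors (-0.034) and with library totals (-0.0016). A model that weights libraries by quality gave 0.84 instead (limma-voom, adjusted p = 2.0e-05). The position of normal kidney 9 also rests on its scaling factor, since on library totals alone it read 7164 CPM. Per gene length (TPM) it read 15780, within the tumor range of 14400 to 23670, while normal kidneys 5, 7 and 8 stayed above that range.

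Tubule injury markers (Havcr1, Lcn2, Vcam1, Sox9, Krt20 and Spp1) were examined beside Fth1. Their sum was 36850, 49320 and 28220 CPM in normal kidneys 5, 7 and 8, and 2050 to 4155 CPM in the other 7, among them normal kidney 9 at 3823 CPM. Tumors lay at 8745 to 36900 CPM. Spp1 alone made up 88.5% to 98.6% of the sum. Without it the sum was 3050, 5076 and 2036 CPM in normal kidneys 5, 7 and 8, 315 CPM in normal kidney 9, 28.2 to 109 CPM in the other 6 and 263 to 1609 CPM in tumors. Of the 6 markers, 1 was higher in tumors and 1 was lower. Thus 3 of the 4 normal kidneys with the highest Fth1 were also those with the highest injury markers, and the remaining one, normal kidney 9, was the library with the lowest TMM factor. The proximal tubule marker sum was low in the same 3 normal kidneys, at 2673, 1762 and 3629 CPM beside 7959 to 11580 in the other 7. The part of tubule injury in the Fth1 values was not tested.

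**Figure D3:**
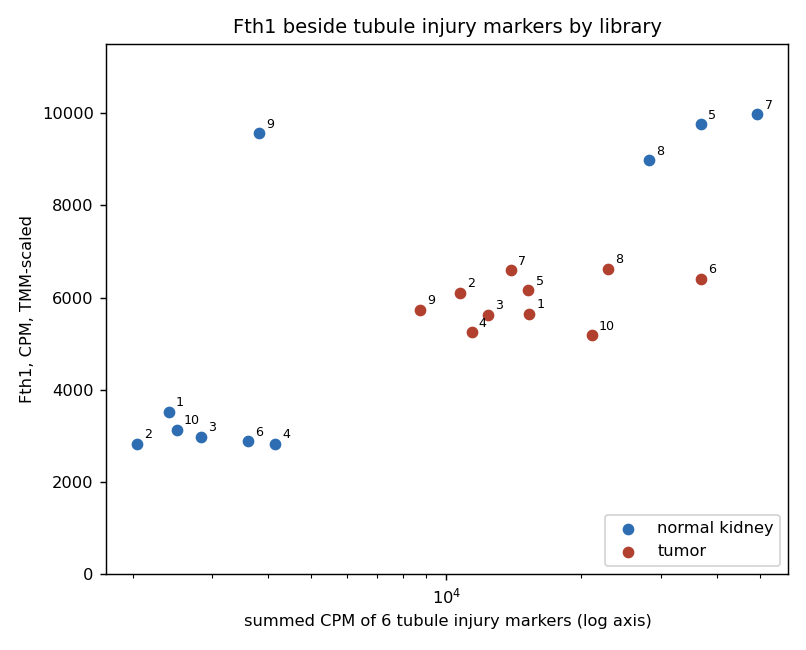
Fth1 level (CPM, TMM-scaled) against the summed CPM of 6 tubule injury markers (log axis) in each library, numbered within its group. Normal kidneys 5, 7 and 8 sit at the upper right, normal kidney 9 has 9568 CPM of Fth1 at a marker sum of 3823 CPM, and the tumors sit between 5185 and 6626 CPM.

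Ftl1 (chr7:45457944-45459884, minus strand), the light chain that helps the iron core to form, was examined next. Normal kidneys ran from 1083 through a median of 1519 to 5631 CPM, and tumors from 3483 through 3936 to 4877 CPM. Every tumor was above 9 of the 10 normal kidneys, and the exception was normal kidney 9, which was the highest of all 20 libraries on this scale. On library totals it read 4216 CPM, below tumor 1 at 4580, and per gene length 6003 TPM, below every tumor (6355 to 9161 TPM). Ftl1 rose by 0.96 on the log2 scale (SE 0.25, adjusted p = 0.00326). Without normal kidney 9 the log2 fold change was 1.26. Ferritin genes have many copies in the mouse genome: 14 further genes or pseudogenes with names that start with Fth or Ftl were in the table, of which 10 had 0 counts in every library. The copy Ftl1-ps1 had 1.77% to 2.32% of the counts of Ftl1 and the same pattern (log2 fold change 0.94, SE 0.25, adjusted p = 0.00403), and reads could have been shared between the 2 genes, so its value is uncertain.

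The chains could be set beside each other per gene length (TPM). The ratio of Fth1 to Ftl1 was 1.79 to 2.82 in tumors (median 2.37) and 2.63 to 8.06 in normal kidneys (median 3.82). The ranges overlapped only through normal kidney 9 (2.63) among the normal kidneys, and all tumors but tumors 5 and 7 lay below every normal kidney. Both chains together took up 0.851% to 1.13% of all counts in tumors and 0.446% to 1.3% in normal kidneys, without TMM scaling. As descriptions of the same counts, these ratios carry no test.

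**Figure D4:**
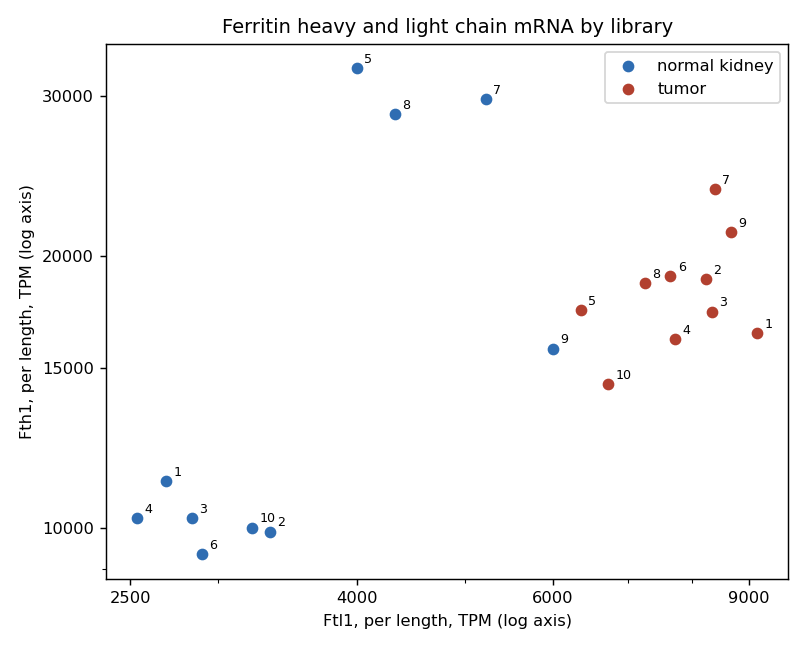
Fth1 against Ftl1 per gene length (TPM, log axes) in each library, numbered within its group. Tumors lie to the right, at 6355 to 9161 TPM of Ftl1, and normal kidneys 5, 7 and 8 lie highest for Fth1, at 28690 to 32230 TPM.

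Uptake came next. Slc11a2 (chr15:100387898-100425072, minus strand), which codes for the divalent metal transporter DMT1, was the gene with the clearest separation. Normal kidneys ran from 69.2 through a median of 116 to 215 CPM and tumors from 264 through 325 to 862 CPM, so that every tumor was above every normal kidney. Of all genes tested, 5.87% had every tumor above and 4.74% every tumor below every normal kidney. Slc11a2 rose by 1.64 on the log2 scale (SE 0.22, adjusted p = 3.4e-06). Libraries numbered 8 were the highest of both groups (862 and 215 CPM), and without tumor 8 the log2 fold change was 1.43.

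Tfrc (chr16:32608920-32632794, plus strand), the receptor for iron-loaded transferrin, lay between 32.7 and 171 CPM in normal kidneys (median 127) and between 100.3 and 287 CPM in tumors (median 171). The groups overlapped widely, with 5 tumors above every normal kidney and 3 normal kidneys below every tumor. Tfrc was called higher by 0.57 on the log2 scale (SE 0.23, adjusted p = 0.0474), but the call lay at the edge of the threshold and was lost in 18 of 33 alternative settings, among them library totals (0.41, adjusted p = 0.19) and leaving out tumor 3 (0.47, adjusted p = 0.0986). Dividing cells carry much transferrin receptor, and proliferation markers were examined for that reason. Their sum was 24.9 to 195 CPM in tumors and 7.89 to 178 CPM in normal kidneys, and 2 of the 8 were called higher and 0 lower. Normal kidney 7 had the highest Tfrc and the highest proliferation sum of the normal kidneys, whereas tumor 3, the highest in Tfrc of all libraries, had a proliferation sum of 93.2 CPM, within the range of the tumors. The part of proliferating cells in Tfrc was not tested.

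For export, Slc40a1 (chr1:45908068-45926523, minus strand) was measured. Normal kidneys ran from 51.7 through a median of 103 to 156 CPM, and tumors from 140 through 354 to 487 CPM. Only tumor 7, at 140 CPM, was not above every normal kidney, and the other 9 tumors were at 300.3 CPM or more. Slc40a1 rose by 1.73 on the log2 scale (SE 0.20, adjusted p = 3.6e-07), the largest change of the 8 genes, and by 1.81 without tumor 7. Macrophages also export iron through this protein. Of 8 macrophage markers tested, 6 were higher and 0 lower in tumors, and the sum of the 10 listed was 280 to 1840 CPM in tumors and 129 to 490 in normal kidneys, with Vsig4 and Marco at 0 in 3 and 4 libraries. Tumor 7 had the highest macrophage sum of all libraries and the lowest Slc40a1 of the tumors, and normal kidney 9 had the highest macrophage sum and the lowest Slc40a1 of the normal kidneys. Both libraries stood apart in other ways. Tumor 7 also had the lowest proximal tubule sum of the tumors, at 995 CPM. Normal kidney 9 had the lowest TMM factor (0.749) and was the lowest normal kidney in Tfrc and Ireb2 too. The part of macrophages in the Slc40a1 values was not tested.

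Per gene length, the ratio of Slc40a1 to Tfrc was 0.777 to 3.34 in tumors (median 1.26) and 0.349 to 1.09 in normal kidneys (median 0.67). By the deposited gene lengths (9000 bases for Slc40a1 and 6185 for Tfrc), exporter mRNA was the more abundant of the pair in 8 of 10 tumors. In normal kidneys Tfrc was the more abundant in all but normal kidney 9. Transcript lengths in these tissues were not measured, so which gene of the pair ranks first rests on these lengths. The same lengths served both groups. The log2 ratio of Tfrc to Fth1 was -8.78 to -7.13 in tumors and -11.03 to -7.07 in normal kidneys, and here the ranges overlapped almost wholly. Both ratios are descriptions without a test.

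Cp (chr3:19957054-20009145, plus strand), the copper oxidase that prepares exported iron for transferrin, was the one member with a negative fitted change. Its level ran from 149 through a median of 314 to 722 CPM in normal kidneys and from 54.6 through 162 to 522 CPM in tumors. The libraries overlapped, although 3 tumors were below every normal kidney and 2 normal kidneys were above every tumor. Tumors 5 and 8 reached 458 and 522 CPM. The log2 fold change was -0.75 (SE 0.34, adjusted p = 0.077), which missed the threshold. In 11 of 33 alternative settings it was called lower, for example -0.91 on library totals (adjusted p = 0.0369) and -0.99 without tumor 8 (adjusted p = 0.018), and in all 33 the value was negative.

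Trf (chr9:103204001-103230444, minus strand), the plasma carrier of iron, was the least abundant member and the most variable. Normal kidneys ran from 4.77 through 11.6 to 69.6 CPM and tumors from 0.909 through 10.7 to 92.8 CPM, and the groups overlapped fully but for tumor 8 above and tumors 2 and 6 below all normal kidneys. The log2 fold change was 0.12 (SE 0.64, adjusted p = 0.895, interval of 1.96 SE -1.14 to 1.38). Its sign changed with the libraries numbered 8, from -0.69 without tumor 8 to 0.70 without normal kidney 8, and also with the scaling and the test used. Transferrin is made mostly by the liver, and markers of hepatocytes were examined beside it. Of 7 tested, 1 was higher and 3 lower in tumors, and their sum was 135 to 694 CPM in tumors and 197 to 2320 CPM in normal kidneys. Normal kidney 8 and tumor 8, the highest in Trf of their groups, also had the highest sums of their groups (2320 and 694 CPM). The next highest sums in normal kidneys were 1880 and 1839 CPM, in normal kidneys 9 and 5, with Trf at 14 and 27.5 CPM. In tumors they were 633 and 590 CPM, in tumors 4 and 5, with Trf at 30.4 and 7.07 CPM. Albumin itself was low, at 0.627 CPM on average over the tumors and 11 CPM over the normal kidneys. The largest means in the sum were those of Fgb in normal kidneys (382 CPM) and of Apoa1 in tumors (148 CPM). Normal kidney 8 was also among the normal kidneys with the highest tubule injury markers. The part of hepatocyte genes in the Trf values was not tested.

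Ireb2 (chr9:54863789-54912530, plus strand), the regulatory protein that is degraded when iron is plentiful, had groups that overlapped widely. Normal kidneys ran from 5.11 through 6.58 to 7.23 log2 CPM and tumors from 6.29 through 6.75 to 7.16 log2 CPM. Apart from normal kidney 9 at the bottom and normal kidney 8 at the top, every normal kidney lay within the tumor range. The log2 fold change was 0.20 (SE 0.17, adjusted p = 0.337, interval of 1.96 SE -0.13 to 0.53), and quality weights in limma-voom gave 0.19 with an adjusted p of 0.0211.

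Ordered per gene length, ferritin mRNAs stood far above the other members in both groups. In tumors the mean was 18310 TPM for Fth1 and 7850 TPM for Ftl1, followed by Slc11a2 at 159, Slc40a1 at 101, Tfrc at 76.4, Cp at 61.3, Ireb2 at 30.4 and Trf at 14.8 TPM. In normal kidneys Fth1 (16750 TPM) and Ftl1 (3707 TPM) were followed by Cp at 109, Tfrc at 54.7, Slc11a2 at 53.1, Slc40a1 at 32.2, Ireb2 at 28.1 and Trf at 14.4 TPM. Fth1 and Ftl1 each stood above the next gene in the order by more than the larger SD of the pair, in both groups, and Fth1 was above Ftl1 in 10 of 10 libraries of each. Below them no neighbours differed by more than the larger of their SDs, but for Slc11a2 over Slc40a1 in normal kidneys. Within single tumors, however, Slc11a2 was above Slc40a1 in 10 of 10 and Slc40a1 above Tfrc in 8 of 10, while Tfrc was above Cp in 7 of 10. In single normal kidneys Cp was above Tfrc in 9 of 10 and Tfrc above Slc11a2 in 6 of 10. By its mean, Cp held the first place after ferritin in normal kidneys and a place after the importer, exporter and receptor in tumors. The order between genes rests on the deposited gene lengths, since transcript lengths were not measured.

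The wider iron pathway was read from a list of 67 further genes, of which 62 were tested. Of these, 18 rose and 13 fell in tumors, which is 29% and 21% of those tested, beside 23.6% and 23.8% of all genes. Its median log2 fold change was 0.12, beside -0.02 over all genes. Among the calls of these 62 genes, 5 had every tumor above and 5 every tumor below every normal kidney. Over all genes tested these shares were 5.87% and 4.74%. Of the 31 called genes 17 changed by at least 1 on the log2 scale (12 higher, 5 lower), and the other 14 are named below after their values were seen.

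Of 12 uptake and reduction genes, 6 were called higher and 2 lower. Tfr2, a transferrin receptor that senses iron-loaded transferrin, rose by 4.33 on the log2 scale (SE 0.50, adjusted p = 4.0e-07), from 2.43 to 49.3 CPM on average, with every tumor above every normal kidney. Cybrd1, a ferric reductase known from gut uptake, rose by 4.88 (SE 0.78, adjusted p = 2.7e-05), but its mean of 67.7 CPM in tumors had an SD of 119 CPM, and without tumor 9 the log2 fold change was 3.75. The ferritin receptor Scara5 rose by 2.25, the reductase Steap4 by 1.61 and the lysosomal channel Mcoln1 by 1.01. Without tumor 7, Scara5 was at 1.35 and Steap4 lost its call (0.64, adjusted p = 0.116). Slc39a8, a zinc and iron importer, fell by 1.13 on the log2 scale. Of the mitochondrial iron importers, Slc25a37 was called higher (0.43), a call kept in 10 of 33 alternative settings, and Slc25a28 lower (-0.48).

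Export and the hepcidin axis held 5 higher and 1 lower of 7 tested genes. Heph, an oxidase that works beside ferroportin, rose by 1.17 on the log2 scale (SE 0.27, adjusted p = 0.00108), which was opposite in sign to Cp. Bmp6, the ligand that drives hepcidin in liver, rose by 1.74 (SE 0.17, adjusted p = 4.5e-08), from 108 to 359 CPM on average, and Hfe by 1.06. The hemojuvelin gene Hjv was at 0.596 to 17.1 CPM in tumors and at 0 to 0.195 CPM in normal kidneys (adjusted p = 1.4e-07), and Erfe, erythroferrone, at 1.93 to 6.69 and 0 to 1.13 CPM (adjusted p = 1.3e-06). Tmprss6, the protease that cleaves hemojuvelin, was at 0 to 0.895 CPM in tumors and 0.219 to 42.7 CPM in normal kidneys (adjusted p = 0.000109). For these 3 genes no fold is given, because some libraries held few or no counts. The genes of hepcidin itself, Hamp and Hamp2, and of mitochondrial ferritin, Ftmt, had fewer than 5 counts in every library.

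Carrier protein uptake from urine held 1 higher and 2 lower of 5 genes. The higher one, Amn (0.62), kept its call in 15 of 33 alternative settings. Lcn2, which binds iron-laden siderophores and is also a tubule injury marker, fell by 5.00 on the log2 scale (SE 1.37, adjusted p = 0.00491), with a mean of 24.9 CPM over the tumors, while the normal kidneys had a mean of 798 CPM and an SD of 1250. The log2 fold change of Lcn2 was -6.42 without tumor 7 and -4.39 without normal kidney 7. Its receptor Slc22a17 fell by 3.67, with every tumor below every normal kidney. Heme and hemoglobin handling was mixed, with 2 higher and 3 lower of 10 tested. The heme degradation enzyme Blvrb rose by 2.60 (SE 0.36, adjusted p = 4.5e-06), with every tumor above every normal kidney. Cd163, the hemoglobin scavenger receptor of macrophages, rose by 2.55, but by 1.26 without tumor 7 (adjusted p = 0.052). The heme exporter Flvcr1 fell by 2.02 (SE 0.22, adjusted p = 1.5e-07), and Hmox2 (-0.71) and Blvra (-0.43) were lower, the latter in 18 of 33 alternative settings. Of 7 red cell markers tested, among them the hemoglobin genes, 0 were higher and 1 was lower, Slc4a1, which is also made in the collecting duct. The sum of these markers was 511 to 4466 CPM in tumors and 597 to 5940 CPM in normal kidneys.

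Among iron sensors, Fbxl5, which targets the Ireb2 protein for degradation, rose by 0.92 on the log2 scale (SE 0.10, adjusted p = 1.6e-07), with every tumor above every normal kidney. The Ireb2 mRNA did not pass the test, and the protein on which Fbxl5 acts was not measured. Aco1, the other iron regulatory protein, did not pass the test (0.15, adjusted p = 0.392). Of the ferritin handling genes, the iron chaperone Pcbp1 was called higher (0.25), a call kept in 13 of 33 alternative settings, and Pcbp2 lower (-0.64) in all 33, with every tumor below every normal kidney for Pcbp2. Heme synthesis held 1 higher gene, the first enzyme Alas1 (0.99), and 3 lower, Alad (-0.89), Urod (-0.59) and Fech (-0.35), of 9. Of 14 iron-sulfur cluster assembly genes, 1 was higher, Ciapin1 (0.50), and 1 lower, Isca1 (-0.41).

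**Figure D5:**
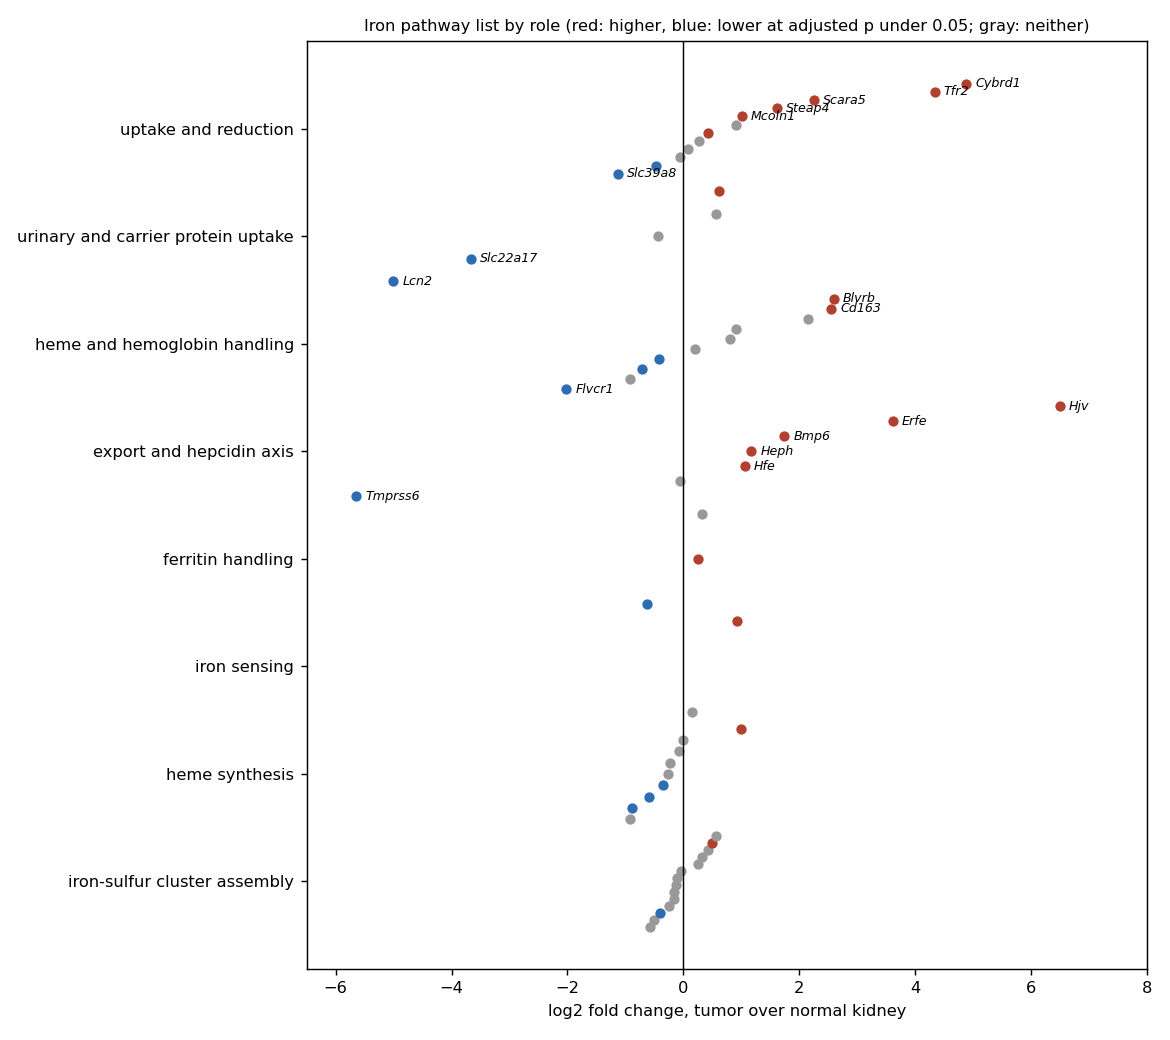
Log2 fold change of tumor over normal kidney for the 62 tested genes of the iron pathway list, grouped by role; each point is a gene, and genes called with a change of at least 1 are named. Most uptake and export calls lie to the right of 0, and the iron-sulfur genes lie close to 0.

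To see which other genes ran most alike across the 20 libraries, each member was set against 9674 protein-coding genes with a mean of at least 10 CPM, by the root mean square (RMS) difference of log2 CPM after centring. For Ftl1 the nearest were the copy Ftl1-ps1 (0.0975), the thioredoxin gene Txn1 (0.205) and the copper chaperone gene Atox1 (0.252), beside a median of 0.841 over all genes. For Ireb2 they were Ubr3 (0.147), Acvr1b (0.166) and Fcho2 (0.172), beside a median of 0.595. Fth1 was nearest to Slc39a1 (0.285), Fbxo6 (0.294) and Myd88 (0.296), beside 0.757. Slc40a1 was nearest to Eif5a2 (0.293), Arfgap3 (0.307) and Dgkq (0.317), beside 1. Tfrc was nearest to Cep162 (0.31), Erap1 (0.326) and Spg11 (0.327), beside 0.75, and Slc11a2 to Parp9 (0.346), Pdk1 (0.348) and Mast3 (0.393), beside 0.976. Cp and Trf had no close neighbour, since their nearest genes lay at 0.577 (Rffl), 0.578 (Zfp697) and 0.579 (Gabbr1), and at 1.22 (Fabp1), 1.26 (Cish) and 1.26 (Alas2), beside medians of 1.02 and 1.57. Likeness here is over 20 libraries that fall into 2 groups and share their scaling factors, and it carries no test.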

How the data were processed

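Poly(A) RNA of 10 tumors and 10 normal kidneys was sequenced as read pairs by a company, and the authors deposited whole-number counts per gene without normalization; the submitters' notes name the build mm10. The aligner, the counter and the use of strand are not given in the sources used here. Gene lengths for values per length (TPM) were those deposited with the counts, and ratios and orders between genes rest on them. The table held 0 rows that name no gene and 0 unused sample columns.

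Groups and numbers of libraries came from sample titles. Counts were scaled with TMM factors and filtered (filterByExpr, minimum count 10) in edgeR 4.0.16 (R 4.3.3), and 15354 genes were compared between all 20 libraries by the quasi-likelihood test with no covariate, two-sided, with Benjamini-Hochberg adjustment over all genes and a threshold of 0.05. CPM and log2 CPM (prior count 2) described single libraries. In each of 90 pairs of libraries of a group the counts differed beyond sampling noise (chi-square at least 14.3 per degree of freedom). The tests were tried on simulated counts of 15354 genes. The spread between libraries entered every test, and read counts without molecular identifiers are not independent molecules.

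The genes, lists and markers (macrophage, erythroid, hepatocyte, neutrophil, proximal tubule, distal nephron, tubule injury, endothelial and proliferation) were chosen with earlier results of these data known. Named were the 8 genes, called list genes with a log2 fold change of at least 1, list genes under 5 counts by name, ferritin copies, and for each gene the 3 protein-coding genes with the smallest RMS difference. Of 3 neutrophil markers tested 1 was higher in tumors and 0 lower, with sums of 1.93 to 319 CPM in tumors and 2.27 to 25.3 CPM in normal kidneys. Of 6 endothelial markers 1 was higher and 2 lower (230 to 782 and 383 to 544 CPM). Alternatives changed the scaling, filter, test (DESeq2 1.42.0, limma 3.58.1), block and libraries. Hairpins were read from GENCODE M21.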

Additional observations from a re-analysis of the deposited data

Results flagged for a closer look

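Among 16 sets of 10 libraries (8 genes in 2 groups), 4 held a library whose gap to its nearest neighbour was over 0.466 of the whole range of log2 CPM, Dixon's 95% limit for 10 values, which chance passes in about 1 of 20 sets. Tfrc in normal kidney 9 was at 5.04 log2 CPM, below 6.51 to 7.42 in the other normal kidneys. Ireb2 in the same library was at 5.11, below 6.49 to 7.23. This is the library with the TMM factor of 0.749 and 12.2% mitochondrial counts. Slc11a2 in tumor 8 was at 9.75 log2 CPM, above 8.05 to 8.94 in the other tumors. Slc40a1 in tumor 7 was at 7.13, below 8.23 to 8.93, and tumor 7 had the highest macrophage and the lowest proximal tubule marker sum of all libraries.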

How the results depend on the processing

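Log2 fold changes and counts of calls were recomputed under 33 alternatives (32 for Tmprss6, which gave no value without tumor 7 and normal kidney 9 together), and mean levels on library totals, but not ratios, nearest genes or marker sums. Ftl1, Slc11a2 and Slc40a1 kept direction and call in all of them (0.84 to 1.57, 1.43 to 1.77 and 1.56 to 1.81 on the log2 scale). Upper quartile factors and library totals moved the median of all genes from -0.02 to -0.14 and the share of calls that are higher from 49.8% to 39.2% and 38.6%. Under these 2 scalings Fth1 was -0.034 and -0.0016, Tfrc 0.45 and 0.41 (not called), Cp -0.88 and -0.91 (called), and Trf -0.0025 and -0.023. Relative to those medians Fth1 and Trf stayed above that of all genes. Tfrc also lost its call with RLE factors (0.54), factors without the 20 most abundant genes (0.51) or without mitochondrial genes (0.55), no filter (0.57) and without the libraries numbered 8 (0.55), an alternative chosen after the data were seen. Cp was called with DESeq2 (-0.78), limma-voom (-0.89), quality weights (-1.14) and without both libraries numbered 8 (-0.88), so that 1 of the 8 genes was called lower there, as under the 2 scalings. Quality weights called Fth1 (0.84) and Ireb2 (0.19) higher. Trf was negative with limma-voom (-0.39), weights (-0.27) and without both libraries numbered 8 (-0.11). Leaving out single libraries gave -0.0077 to 0.20 for Fth1 (negative without normal kidneys 2, 3, 4 or 6: -0.0067, -0.0027, -0.0077 and -0.0054), 0.44 to 0.64 for Tfrc (call lost in 11 of 20), -0.99 to -0.60 for Cp (called without normal kidney 7, tumor 5 or tumor 8), -0.69 to 0.70 for Trf, and 0 to 1 gene called lower. The cause of these changes was not tested. The mean levels of the 8 genes on library totals were 0.95 to 1.07 times those with TMM factors. Of 32 further genes tested, the 31 called list genes and Ftl1-ps1, 26 kept their call throughout; Steap4, Cd163, Slc25a37, Amn, Blvra and Pcbp1 did not, and none reversed.

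Tumors and normal kidneys share the numbers 1 to 10, but no source says that a number marks a mouse. Deviations of same-numbered libraries correlated at 0.19 to 0.38 in 9 pairs and at -0.14 in pair 9, and 8 of 10 correlated best with their own number. With a replicate block Cp was -0.87 and called, which makes 1 gene called lower, and Trf was -0.29; without pair 9, chosen after the data were seen, they were -0.996 (1 gene called lower) and -0.20. The block moved the calls over all genes from 3631 higher and 3661 lower to 3978 and 3886.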
